A study of Mus musculus with 58 samples.

Results

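Interferon-stimulated genes are the genes that a cell switches on when type I, II or III interferon binds its receptor. Here they are 44 genes given as a list of symbols, and all 44 were found among the 55376 genes counted in each RNA-seq library. They were followed in hematopoietic stem cells (HSCs), the self-renewing cells at the top of blood formation, of male C57BL/6 mice under caloric restriction (CR), that is feeding below ad libitum (ad lib) intake. YAL mice (Young Ad Libitum) and YCR mice (Young Caloric Restricted) were 3 to 4 months old, and YCR mice received 20% CR for the first week and 40% CR thereafter as a short-term regimen. OAL mice (Old Ad Libitum) and OCR mice (Old Caloric Restricted) were 24 to 26 months old, with OCR mice under lifelong 40% CR. YCRRF and OCRRF mice (Re-Fed) were returned to ad lib food for 4 weeks after restriction. These diet HSCs were sorted as lineage-negative Sca-1+ c-Kit+ CD34- Flk2- CD150+ cells. In a second experiment HSCs of aged male mice were transduced with lentiviral shRNA against Kdr (the VEGF receptor, with a GFP reporter), against Kdr together with Bmpr1a (a BMP receptor, targeted by shRNA1 or shRNA2), or with the matching scramble shRNA, cultured for about a day, transplanted into irradiated female CD45.1 recipients and sorted again as CD48- CD150+ CD45.2+ cells. The transplanted cells therefore all passed through culture, virus and an irradiated host.

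Type I interferons signal through the receptor of Ifnar1 and Ifnar2, whose kinases Jak1 and Tyk2 activate Stat2 and other STAT factors. Stat2 and Irf9 are part of a complex that binds the interferon-stimulated response element (ISRE), while interferon gamma acts through the gamma-activated site (GAS). HSCs are known to express many of these genes without infection, and interferon is known to push quiescent HSCs into cycle. The products restrict viruses at entry (the Ifitm proteins), at the RNA level (Oas, Ifit and Mx proteins) or inside the cell (the Gbp and Irg GTPases), and a few, such as Usp18, feed back on the pathway.

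The promoters show the shared letters. RefSeq promoter windows of GRCm38.p6, from 250 bases before to 50 bases after the start site, were matched by symbol for 33 of the 44 genes. Letters were searched on both strands, and matches of different patterns may overlap: GAAANNGAAA for the ISRE, GGAANNGAAA for the composite element bound by PU.1 with an IRF (EICE), TTCNNNGAA for the GAS and GAGGAAGT for PU.1. The ISRE letters were in 17 of the 33 promoters (51.5%), against 3.48% of all 27025 promoters. The GAS letters were in 10 (30.3%, against 8.41%), the EICE letters in 6 (18.2%, against 2.76%) and the PU.1 letters in 1 (3.03%, against 3.29%). The ISRE letters stood more than once in 7 promoters, and 8 promoters held none of the patterns. Stretches of 60 bases follow for the 5 genes that changed under CR and had a window, and for Ifit1 and Isg15, which hold 2 and 3 matches and did not pass the test. Each is printed 5′ to 3′ on the strand of its gene, with its range counted from the start site. Capitals mark the ISRE letters, or in Ifi44 the EICE letters; on the opposite strand these read as their reverse complement. Ifitm1 is shown because its window holds none.
Ifitm3, chr7:141010715-141010774, minus strand, -30 to 30: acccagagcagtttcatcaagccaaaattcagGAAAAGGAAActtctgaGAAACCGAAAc
Ifitm1, chr7:140968016-140968075, plus strand, -60 to -1: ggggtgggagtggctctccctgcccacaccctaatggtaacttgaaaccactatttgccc
Ifi44, chr3:151749924-151749983, minus strand, -73 to -14: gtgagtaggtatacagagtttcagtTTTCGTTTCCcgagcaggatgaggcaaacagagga
Igtp, chr11:58199497-58199556, plus strand, -59 to 1: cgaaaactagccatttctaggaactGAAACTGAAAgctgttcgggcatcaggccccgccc
Ifit3, chr19:34583365-34583424, plus strand, -164 to -105: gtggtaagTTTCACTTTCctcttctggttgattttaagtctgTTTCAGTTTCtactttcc
Ifit1, chr19:34640769-34640828, plus strand, -120 to -61: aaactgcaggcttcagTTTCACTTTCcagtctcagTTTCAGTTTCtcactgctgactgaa
Isg15, chr4:156200856-156200915, minus strand, -97 to -38: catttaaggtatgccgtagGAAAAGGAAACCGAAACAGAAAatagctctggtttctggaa
In Ifitm3 both matches lie past the start site, at 3 to 12 and 20 to 29 bases, with GAS letters at 14 to 22. In Igtp the EICE letters (-40 to -31) overlap both the GAS letters (-45 to -37) and the ISRE letters (-34 to -25). A match describes letters and is not a binding site.

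**Figure D1:**
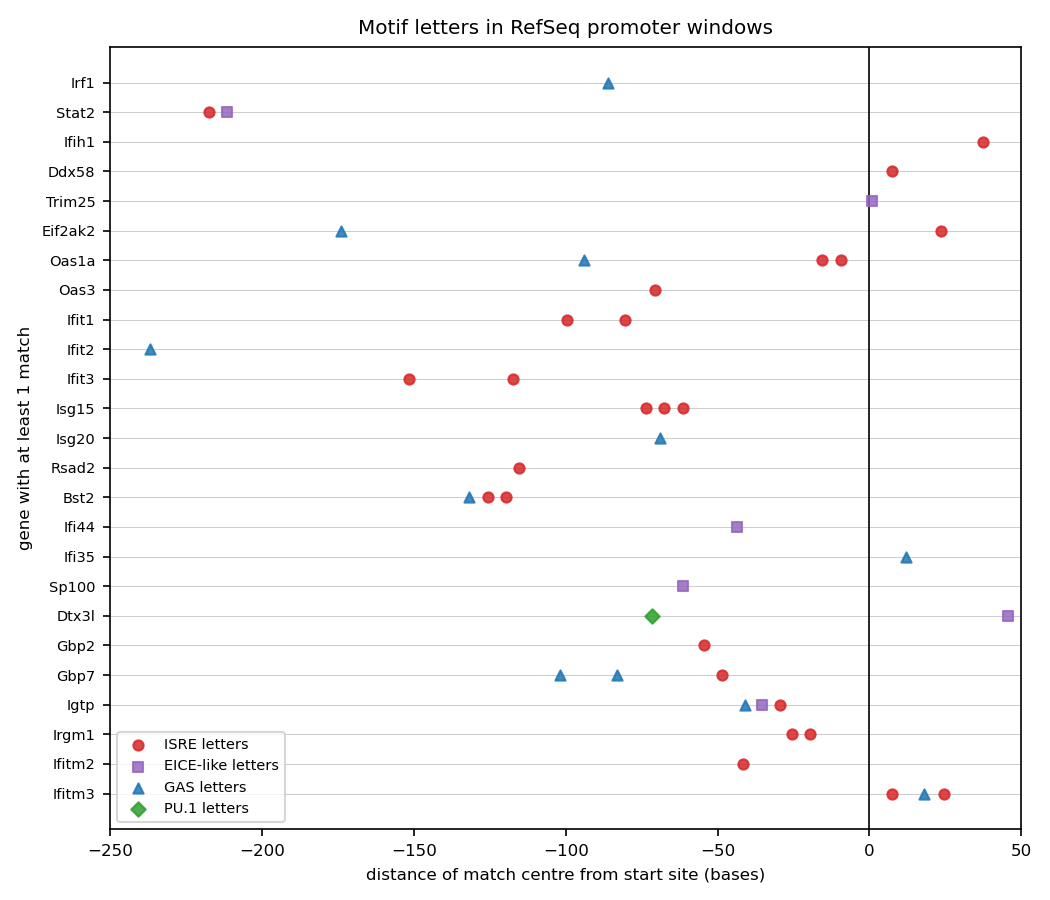
Positions of the searched letters in the RefSeq promoter windows of the 25 genes with at least 1 match; the x axis is the distance of the centre of a match from the start site in bases, and the marker shape is the pattern. Most ISRE matches lie before the start site, and those of Ifih1, Ddx58, Eif2ak2 and Ifitm3 lie after it.

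Of the 44 genes, 19 stand in 7 clusters of relatives on the mm10 chromosomes: the Ifitm genes on chr7:140954837-141010770, the Ifit genes on chr19:34550694-34650009, the Gbp genes on chr3:142530342-142638008, Oas2, Oas3 and Oas1a on chr5:120730333-120907521, Oasl2 and Oasl1 on chr5:114896936-114937915, Parp14, Dtx3l and Parp9 on chr16:35832874-35972605, and Mx1 and Mx2 on chr16:97447035-97560900. Reads may be shared between such relatives, so single members of the Ifit, Oas, Gbp, Ifitm and Mx families are less certain than the others. Per kilobase of exon, the mean over the 22 diet libraries was highest for Ifitm3 (1097 CPM per kb, library-scaled counts per kilobase), followed by Ifitm1 (683 CPM per kb) and Ifitm2 (243 CPM per kb). Bst2 (75.8 CPM per kb), Igtp (62.2 CPM per kb) and Irf1 (49.3 CPM per kb) came next. The lowest were Mx1 (1.03 CPM per kb), Mx2 (1.30 CPM per kb) and Oas2 (1.92 CPM per kb). The 3 Ifitm genes stood above all other members on this scale.

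The RNA-seq groups held 4 libraries each for YAL, YCR, YCRRF, OAL and OCR, 2 for OCRRF, 4 for the Kdr knockdown, 2 for its GFP scramble, 4 for the double knockdown and 2 for its scramble. Totals were between 11102898 and 36579392 counts in the diet libraries and between 35657999 and 44780217 in the transplanted ones. Old libraries detected more genes than young ones: 42071 to 43972 in OAL against 25936 to 28713 in YAL. Counts of olfactory and vomeronasal receptor genes, which HSCs do not use, summed to 553 to 788 CPM in OAL and 113 to 229 CPM in YAL, so age is accompanied by a difference in library background. YCRRF replicate 3 stood apart, with 4.09% of its counts from mitochondrial genes against 1.09% to 1.54% in the other 3 YCRRF libraries, and the main values of the comparison of YCRRF with YCR are given with and without it. The 12 stem cell markers summed to 4459 to 6252 CPM in all diet libraries, with Kit the most abundant. Of the 7 plasmacytoid dendritic cell markers, a cell known for making interferon, Tcf4 was the most abundant, at 119 to 205 CPM of sums of 123 to 209.7 CPM in the diet libraries.

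Levels below are CPM (counts scaled to a common library size by TMM factors). A gene was called changed in edgeR's quasi-likelihood test at a Benjamini-Hochberg adjusted p below 0.05 over all genes tested and a fold change above 1.2, and all 44 genes were tested in every comparison. Bulk libraries cannot tell fewer cells of a type from less RNA per cell. The study counts the diet HSC samples by mice, but the labels do not say whether each library came from a separate mouse, so p-values measure the spread between these libraries.

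Relative to ad lib mice of the same age, the set was lowest in YCR. For each library the median over the 44 genes of the log2 CPM difference from the mean of the age-matched ad lib group was taken. It was -0.31, -0.29, -0.29 and -0.35 in the YCR libraries and -0.11 to 0.08 in YAL, so these groups did not overlap. In YCRRF the 4 values were 0.03, 0.02, -0.14 and 0.06, within or close to the YAL range. OCR gave -0.10, -0.03, -0.25 and -0.10 against -0.10 to 0.13 in OAL, and these groups overlapped. The 2 OCRRF libraries stood at 0.06 and -0.02. OCR replicate 3, the lowest old library, also had the most receptor counts of the OCR group (1313 CPM). In YCR replicates 1 to 4 these counts were 69.2, 261, 265 and 499 CPM, against 113 to 229 CPM in YAL. Replicate 4, the lowest YCR library, thus had the most of its group. The part of this background in the OCR and YCR values was not tested.

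**Figure D2:**
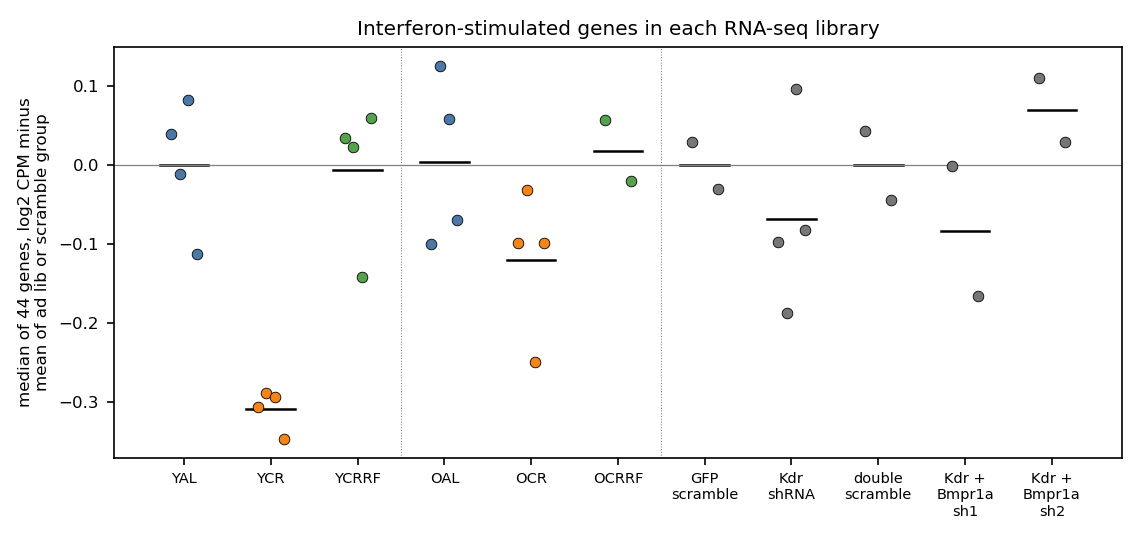
Each point is 1 RNA-seq library; the y axis is the median over the 44 genes of log2 CPM minus the mean of the matching ad lib group (diet libraries) or scramble group (grey, transplanted libraries), and the bar is the group mean. The 4 YCR libraries lie between -0.35 and -0.29, below every other diet library.

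Lifelong CR was compared first, to ask which of these genes differ between OCR and OAL HSCs. In OCR 6 genes fell: Ifitm1 and Ifitm3, which block fusion of viruses with the cell membrane, Ifit3, an RNA-binding antiviral protein, Ifi27 and Ifi44, interferon-inducible proteins, and Rtp4, a chaperone of cell surface receptors. None rose in edgeR or DESeq2, which called 7.06% of all genes in either direction. At an unadjusted p below 0.05 were 13, 3 of them higher, against 16.2% of all genes in either direction. Of the 12398 genes averaging 5 CPM or more, 3305 had such a p. Calls across all 27150 genes tested were 2.54% higher and 3.03% lower, and among the 12398 genes averaging 5 CPM or more 11.1% were called in either direction, against 13.6% of the set. In all, 34 of the 44 genes were lower and 10 higher, with a median log2 fold change of -0.13 against 0.02 over all genes. Of the genes averaging 5 CPM or more, 43.4% were higher, with a median of -0.03. The median of the set rested in part on single libraries: it was -0.06 with 16 genes higher without OAL replicate 2, and -0.08 with 15 higher without OCR replicate 3. Other filters and scalings called Eif2ak2, the double-stranded RNA kinase PKR, higher: requiring 10 counts in each library, a mean of 5 CPM (which also called Ifit2, as did leaving out OAL replicate 2) or TMM factors from genes of at least 5 CPM. With those factors the calls over all genes were 894 higher and 698 lower, against 689 and 822. The 4 OCR and 4 OAL libraries did not overlap for 5 genes that were lower and 1 that was higher (Eif2ak2), where the shares of all genes were 7.13% and 4.24%. Of the 12398 genes averaging 5 CPM or more, 1659 were lower and 786 higher without overlap, so the set did not stand out by this measure.

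Of the 3 Ifitm genes 2 passed. Ifitm1 (chr7:140967221-140969825) was at 768, 694, 732 and 821 CPM in OAL and 500.5, 496, 523 and 554 CPM in OCR. Every OCR library was below every OAL library, and the log2 fold change was -0.52 ± 0.0798 (SE; adjusted p = 4.81e-05, edgeR). Ifitm3 (chr7:141009586-141010770) was at 754, 814, 797 and 854 CPM in OAL and 629, 628, 595 and 551 CPM in OCR. Its groups were also apart, by -0.41 ± 0.0784 on the log2 scale (adjusted p = 0.000965, edgeR). Ifitm2, the third of the cluster, was at 143, 148, 139.8 and 153 CPM in OAL and 152, 129, 129 and 119.8 CPM in OCR, which overlap (-0.12 ± 0.0824, adjusted p = 0.518, edgeR).

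Among the other inducible genes, Ifi27 (chr12:103434211-103440239) was at 69.1, 76.0, 62.1 and 59.3 CPM in OAL and 41.3, 55.4, 42.1 and 44.4 CPM in OCR. The highest OCR library lay under the lowest OAL library, and the log2 fold change was -0.52 ± 0.10 (adjusted p = 0.00108, edgeR). Ifi44 (chr3:151730922-151749960) was at 86.8, 109, 91.2 and 80.3 CPM in OAL and 59.0, 71.3, 69.0 and 79.7 CPM in OCR, by a narrow gap without overlap (-0.38 ± 0.0993, adjusted p = 0.0179, edgeR). Rtp4 (chr16:23520291-23614222) was at 93.6, 132, 108 and 105 CPM in OAL and 94.4, 89.2, 82.3 and 66.6 CPM in OCR. These overlap by 1 library (-0.38 ± 0.10, adjusted p = 0.0230, edgeR). The call was lost without OAL replicate 2 (-0.26), OCR replicate 3 (-0.38) or OCR replicate 4 (-0.29), and that of Ifi44 without OAL replicate 2 (-0.27) or OCR replicate 1 (-0.31). Sp100, a nuclear body protein and the most abundant gene of this group, was at 161, 188, 183 and 178 CPM in OAL and 162, 169, 146 and 165 CPM in OCR and did not pass (-0.13 ± 0.0814).

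Of the 3 Ifit genes 1 passed. Ifit3 (chr19:34583531-34588731) was at 5.86, 8.11, 6.96 and 5.60 CPM in OAL and 4.88, 3.19, 3.75 and 4.50 CPM in OCR, a low level at which all OCR libraries were under all OAL libraries (-0.68 ± 0.19, adjusted p = 0.0226, edgeR). The call was lost without OAL replicate 2 (-0.55), OAL replicate 3 (-0.67), OCR replicate 2 (-0.59) or OCR replicate 3 (-0.65). Ifit1, which binds viral RNA caps, was at 26.9, 34.8, 31.9 and 21.5 CPM in OAL and 21.7, 20.9, 22.1 and 24.1 CPM in OCR, with an overlap, and did not pass (-0.36 ± 0.12, adjusted p = 0.0942, edgeR; -0.23 without OAL replicate 2). Ifit2 was at 40.4, 48.2, 37.6 and 39.0 CPM in OAL and 44.9, 57.0, 48.7 and 45.8 CPM in OCR (0.27 ± 0.10, adjusted p = 0.146, edgeR). Its groups overlap, and its value was above 0 while those of both neighbours in the cluster were below it.

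None of the 4 signal transducers and transcription factors passed in OCR, and all 4 values were below 0. Irf7, the factor that amplifies interferon transcription, was at 26.3, 34.3, 32.6 and 25.8 CPM in OAL and 28.8, 29.7, 25.9 and 30.1 CPM in OCR (-0.04 ± 0.11). The groups overlap almost fully, and the sign of this value changed with single libraries. Irf9 was at 114, 128, 137 and 110.3 CPM in OAL and 114, 106, 87.6 and 114 CPM in OCR (-0.20 ± 0.0932, adjusted p = 0.291, edgeR), and Stat2 at 76.8, 83.8, 77.2 and 60.6 CPM in OAL and 66.1, 69.0, 54.4 and 78.8 CPM in OCR (-0.13 ± 0.11). With 1 library left out Irf9 ran from -0.24 to -0.12 and Stat2 from -0.22 to -0.05, both nearest 0 without OCR replicate 3. Irf1, the gamma-responsive factor, was at 161, 198, 197 and 173 CPM in OAL and 163, 171, 151 and 157 CPM in OCR (-0.17 ± 0.0834, adjusted p = 0.323, edgeR).

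No gene of the remaining families passed in OCR. Usp18, the protease that removes Isg15 and restrains the receptor, was at 18.4, 26.0, 26.8 and 27.2 CPM in OAL and 24.2, 22.5, 18.0 and 26.0 CPM in OCR, and Isg15, the ubiquitin-like modifier itself, at 9.39, 10.8, 11.4 and 10.9 CPM in OAL and 7.41, 11.1, 9.33 and 9.71 CPM in OCR. Both pairs of groups overlap. Bst2 (tetherin, which holds virions on the cell) was at 59.4, 66.9, 68.9 and 63.9 CPM in OAL and 60.4, 62.4, 52.0 and 58.5 CPM in OCR, and Adar, an editor of double-stranded RNA, at 133, 143, 146 and 118 CPM in OAL and 126, 126, 117 and 136 CPM in OCR. The 7 sensors and their partners split 4 higher to 3 lower with a median of 0.01, and all 6 GTPases were below 0 by 0.02 to 0.24. Igtp, a GTPase acting on the vacuoles of intracellular parasites, was at 111, 143, 140.1 and 119 CPM in OAL and 124, 127, 103 and 99.9 CPM in OCR, and Gbp7 at 168, 196, 187 and 169 CPM in OAL and 165, 193, 146 and 169 CPM in OCR. Oasl2 was at 109.9, 127, 123 and 112 CPM in OAL and 103, 109, 99.4 and 115 CPM in OCR, and Dtx3l, a ubiquitin ligase that pairs with Parp9, at 179.8, 199, 179 and 158 CPM in OAL and 177, 203, 190.3 and 195 CPM in OCR. The groups overlap for all 6 of these genes as well.

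Other markers moved in the same comparison. Of 12 stem cell markers 5 fell, among them Ly6a, Procr, Mllt3 and Fgd5, and of 8 erythroid markers 4 fell and 1, Epor, rose. The erythroid sum, led by the globin gene Hbb-bs in OAL and by Epor in OCR except replicate 3 (Hbb-bs), was 45.9 to 237 CPM in OAL and 48.1 to 85.3 CPM in OCR. Of the T and NK cell markers Klrb1c, an NK cell receptor, fell (-0.95 ± 0.11) and Nkg7, a granule protein, rose (0.81 ± 0.16). Their sum, led by Klrb1c in all but OCR replicate 1 (Nkg7), was 59.8 to 70.8 CPM in OAL and 41.9 to 56.5 CPM in OCR, without overlap. The plasmacytoid dendritic cell sum, nearly all Tcf4, was 157 to 178 CPM in OAL and 146 to 154 CPM in OCR. Mitochondrial genes took 1.36% to 1.55% of counts in OAL and 1.14% to 1.29% in OCR, also without overlap. The part of these in the fall of the 6 genes was not tested. One edgeR fit of all 22 diet libraries, with 1 estimate of the spread for young and old groups, called none of the 44 genes, against 6 by edgeR and 6 by DESeq2 on the OAL and OCR libraries alone. It also called fewer genes of all, 0.323% higher and 0.273% lower, or 212 against 1511. The median of the set there was -0.15, and 6 members had an unadjusted p below 0.05 (3.69% of all genes).

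Short-term CR in young mice was compared next, to ask whether the same genes are lower after weeks rather than a lifetime of restriction. Ifitm1, Ifi44 and Igtp fell and none rose, where calls over all 18680 genes were 0.273% lower and 0.091% higher. In all, 39 of the 44 genes were lower in YCR, and the median log2 fold change was -0.25 against 0.00 over all genes. Every YCR library was below every YAL library for 13 genes and above for none, where the shares of all genes were 3.83% and 2.49%. At an unadjusted p below 0.05 there were 14, all lower, against 9.29% of all genes in either direction. DESeq2 called 12, all lower, on the same libraries, and 1.45% of all genes lower and 0.969% higher.

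Ifitm1 was at 1005, 862, 934 and 847 CPM in YAL and 433, 448, 471 and 531 CPM in YCR. The groups were far apart, with a log2 fold change of -0.94 ± 0.0830 (adjusted p = 0.00117, edgeR). Ifi44 was at 109.9, 131, 149.7 and 105 CPM in YAL and 60.2, 68.7, 79.1 and 58.9 CPM in YCR (-0.88 ± 0.14, adjusted p = 0.0312, edgeR). Igtp was at 172, 152, 133 and 144 CPM in YAL and 102, 96.0, 93.7 and 69.6 CPM in YCR (-0.72 ± 0.13, adjusted p = 0.0474, edgeR). Neither pair of groups overlaps. Leaving out any 1 of the 8 libraries left 1 call, or 2 without YCR replicate 3, and Ifitm1 was called in each of these fits. Ifitm3 was at 858, 734, 845 and 763 CPM in YAL and 571, 613, 581 and 658 CPM in YCR, with no overlap, and did not pass (-0.39 ± 0.0737, adjusted p = 0.0615, edgeR). Ifitm2 was at 185, 151, 174 and 166 CPM in YAL and 165, 166, 160.0 and 169 CPM in YCR (-0.02 ± 0.0874), which overlap.

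The 4 signal transducers and transcription factors were all lower in YCR, with a median of -0.47, and none passed. Irf7 was at 63.9, 39.1, 44.7 and 49.1 CPM in YAL and 32.4, 37.3, 22.6 and 16.6 CPM in YCR, with no overlap but a wide spread (-0.84 ± 0.25, adjusted p = 0.270, edgeR). Irf9 was at 164, 174, 166 and 157 CPM in YAL and 118, 142, 97.5 and 123 CPM in YCR (-0.44 ± 0.11, adjusted p = 0.173, edgeR). Irf1 was at 257, 272, 222 and 198 CPM in YAL and 186, 172, 168 and 145 CPM in YCR (-0.49 ± 0.11, adjusted p = 0.122, edgeR), and again the groups were apart. Stat2 was at 98.8, 99.8, 97.0 and 88.0 CPM in YAL and 88.8, 77.4, 79.4 and 84.4 CPM in YCR, where the lowest YAL library lies under the highest YCR library (-0.20 ± 0.0979, adjusted p = 0.578, edgeR).

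Several effectors were low in YCR without passing. Oasl2 was at 170.5, 145, 174 and 162 CPM in YAL and 122, 121, 102 and 128 CPM in YCR, with no overlap (-0.45 ± 0.10, adjusted p = 0.118, edgeR), and all 5 genes of its family were below 0. Rtp4 was at 78.9, 71.1, 78.8 and 79.2 CPM in YAL and 44.1, 62.0, 38.8 and 58.0 CPM in YCR (-0.59 ± 0.16, adjusted p = 0.216, edgeR), and Gbp7 at 207, 242, 269 and 246 CPM in YAL and 203, 153, 201 and 166 CPM in YCR (-0.40 ± 0.11, adjusted p = 0.212, edgeR). Both had all YCR libraries under all YAL libraries. The Ifit genes spread widely. Ifit3 was at 9.63, 11.7, 7.81 and 7.68 CPM in YAL and 3.83, 8.87, 0.716 and 5.10 CPM in YCR (-0.97 ± 0.55), and Ifit1 at 32.3, 40.1, 66.2 and 30.5 CPM in YAL and 41.2, 25.9, 14.9 and 30.5 CPM in YCR (-0.57 ± 0.31). YCR replicate 3 held the lowest value of both. Ifit3 was at -0.62 without it and -1.49 without YCR replicate 2, and Ifit1 at -0.27 without YAL replicate 3. Ifi27 was at 104, 71.8, 81.8 and 72.0 CPM in YAL and 37.4, 36.7, 52.7 and 79.5 CPM in YCR, so that 1 YCR library reached the YAL range (-0.66 ± 0.24, adjusted p = 0.408, edgeR).

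The remaining named genes overlapped between YAL and YCR. Usp18 was at 34.6, 24.4, 27.0 and 23.0 CPM in YAL and 29.3, 23.1, 14.2 and 29.0 CPM in YCR, and Isg15 at 8.68, 9.64, 15.6 and 15.5 CPM in YAL and 9.66, 11.2, 9.81 and 10.1 CPM in YCR. Bst2 was at 79.5, 71.2, 74.6 and 72.3 CPM in YAL and 55.9, 68.1, 77.4 and 71.9 CPM in YCR, and Adar at 141, 186, 142 and 175 CPM in YAL and 152, 132, 155 and 163 CPM in YCR. Sp100 was at 159, 189, 209 and 140.2 CPM in YAL and 139, 181, 139 and 130.2 CPM in YCR, and Dtx3l at 149.7, 170.2, 159.7 and 192 CPM in YAL and 167, 174, 183 and 180.1 CPM in YCR. Ifit2 was at 38.4, 44.3, 72.2 and 43.8 CPM in YAL and 37.9, 38.9, 53.3 and 24.5 CPM in YCR. Parp9, Parp14 and Dtx3l ranged from -0.20 to 0.09. No marker of the 8 cell types was called in YCR against YAL. The neutrophil sum was 3.65 to 665 CPM in YAL and 3.07 to 359.9 CPM in YCR, and its part in the differences was not tested.

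**Figure D3:**
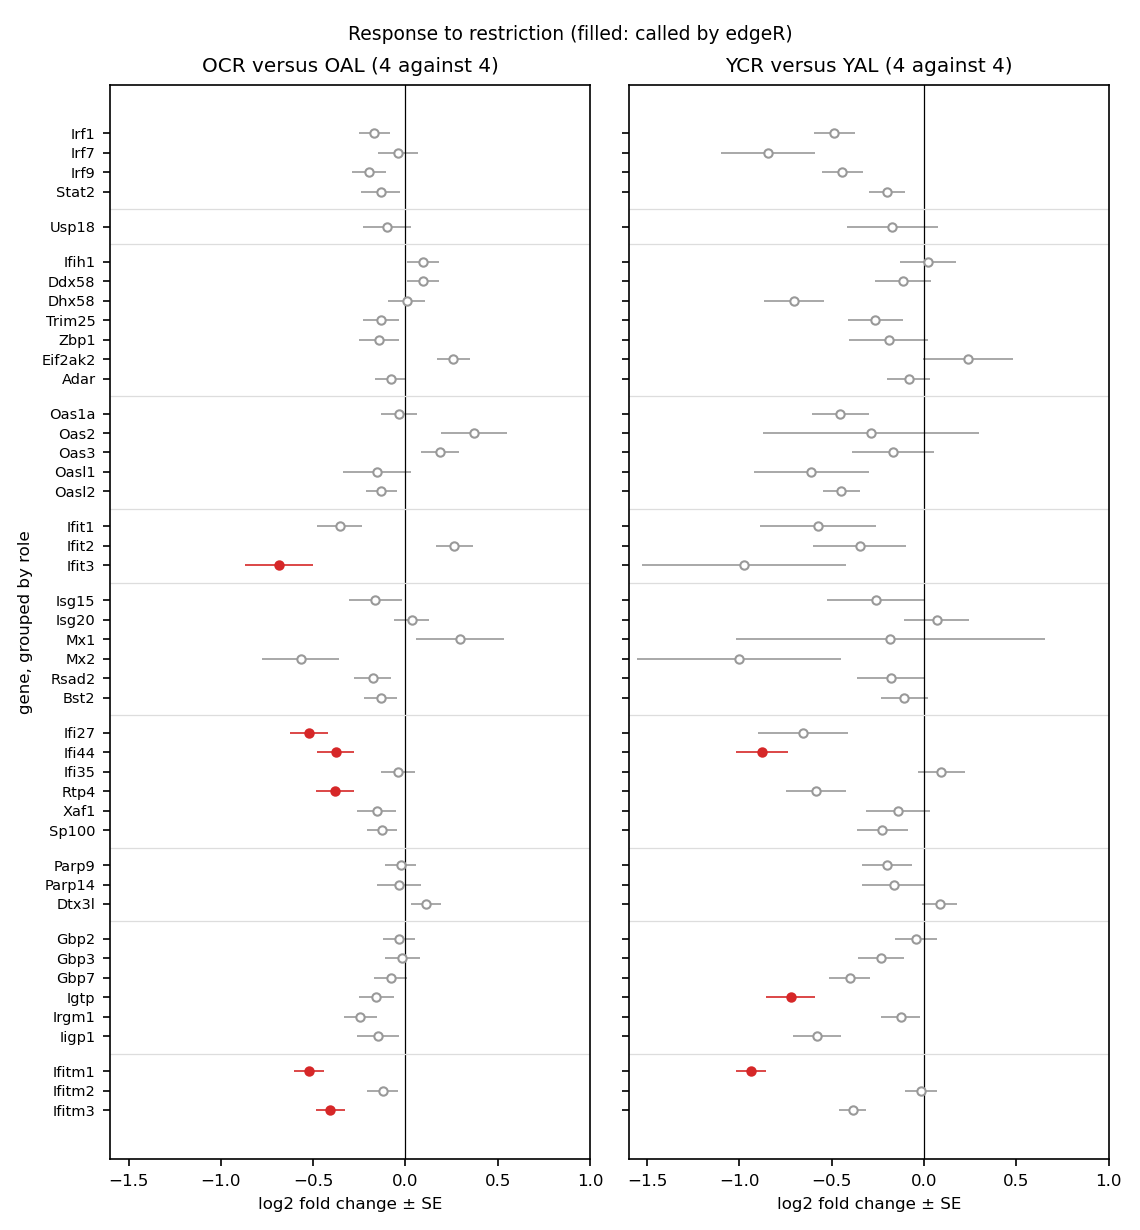
Log2 fold change ± SE of each of the 44 genes in OCR versus OAL (left) and YCR versus YAL (right), with 4 libraries in each group; genes are grouped by role and filled red points passed the test. Ifitm1 and Ifi44 are filled in both panels, Ifitm3, Ifi27, Ifit3 and Rtp4 in OCR and Igtp in YCR.

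**Figure D4:**
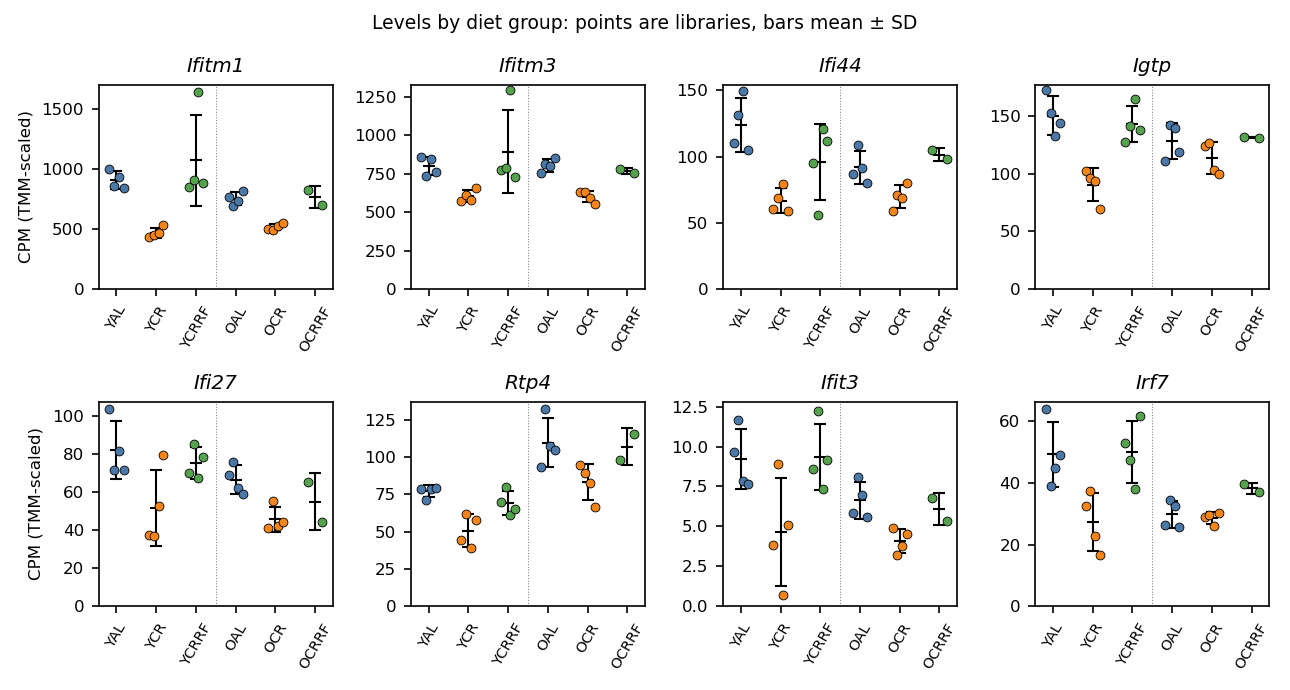
CPM of 8 genes in the 22 diet libraries; points are libraries and bars the mean ± SD of each group. Ifitm1 shows 4 YCR values under all YAL values and 4 OCR values under all OAL values, and 1 YCRRF library at 1648 CPM.

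Old and young mice share no library here, so the directions may be set side by side. Of the 44 genes, 33 (75%) were lower in both OCR and YCR, where 31.9% of 18566 genes tested in both were, and 36.2% of the 12325 averaging 5 CPM or more. Higher in both were 4 genes: Dtx3l, Eif2ak2, Ifih1 (the RNA sensor MDA5) and the exonuclease Isg20. The difference between the responses, (OCR - OAL) - (YCR - YAL), was above 0 for 36 genes and below 0 for 8, with a median of 0.19 against -0.04 over all genes, so the young values were mostly further below 0. None of the 44 passed the edgeR test of this difference, with 11 at an unadjusted p below 0.05, all above 0 (8.8% of all genes in either direction, and 0.0318% called). DESeq2 called 1 (0.328% of all genes above 0 and 0.314% below), Dhx58, an RNA helicase of the sensor family. It was at 40.4, 47.8, 41.6 and 45.4 CPM in OAL and 44.5, 51.7, 39.9 and 37.8 CPM in OCR, and at 69.2, 56.4, 80.9 and 64.9 CPM in YAL and 46.1, 32.1, 39.8 and 46.7 CPM in YCR (0.71 ± 0.20, adjusted p = 0.298, edgeR). Ifitm1 gave 0.41 ± 0.11 (adjusted p = 0.294, edgeR) and Igtp 0.57 ± 0.17 (adjusted p = 0.350, edgeR).

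**Figure D5:**
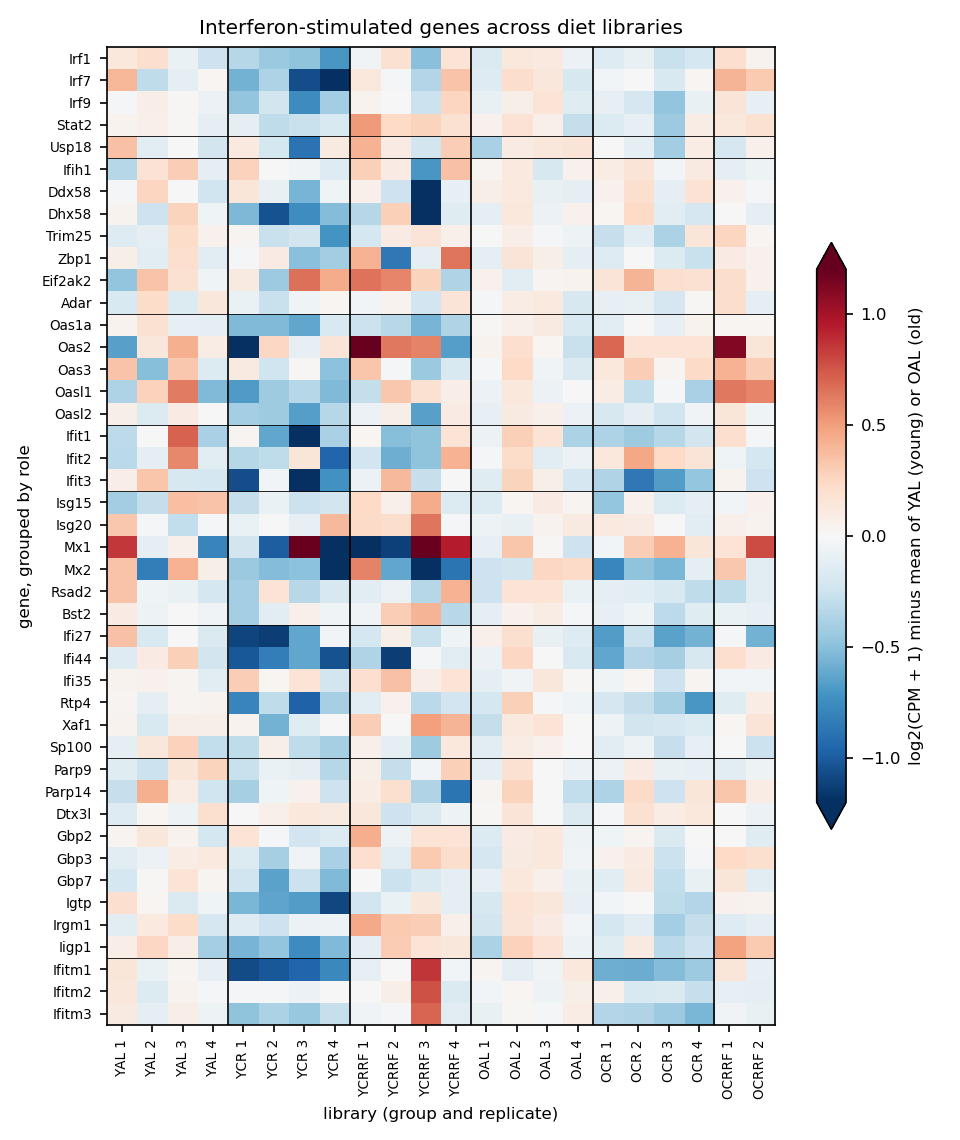
Heat map of log2(CPM + 1) minus the mean of YAL (young libraries) or OAL (old libraries) for the 44 genes (rows, grouped by role) in the 22 diet libraries (columns); blue is lower and red higher. The YCR block is mostly blue, the OCR block paler blue, and YCRRF replicate 3 is red for the 3 Ifitm genes.

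The rest of the pathway was followed in a second list of ligands, receptors, kinases, sensors, inhibitors and further inducible genes. None of the 10 interferon ligands on it had enough counts to be tested in OCR versus OAL or in YCR versus YAL. Ifnb1, the gene of interferon beta, averaged 0.107 ± 0.174 CPM in OAL and 0.131 ± 0.0843 CPM in OCR (SD, n = 4). No receptor or kinase tested was called in OCR or YCR (1 of 6 receptors had too few counts in YCR versus YAL). Ifnar1 was at 101 ± 5.93 CPM in OAL and 101 ± 9.60 CPM in OCR (SD, n = 4). Of 84 list genes tested in OCR, 9 fell and 1 rose, where 3.03% and 2.54% of all genes did. The one that rose was Cgas, the cytosolic DNA sensor, at 13.0, 15.9, 12.5 and 14.6 CPM in OAL and 22.3, 21.8, 20.6 and 20.4 CPM in OCR (0.62 ± 0.12, adjusted p = 0.000720, edgeR). Tmem173, the gene of its adaptor STING, fell (-0.30 ± 0.0810, adjusted p = 0.0235, edgeR).

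Among the 8 inhibitors of cytokine signalling, 2 fell in OCR. Socs3 was at 78.8, 46.3, 33.0 and 45.7 CPM in OAL and 27.4, 28.7, 30.6 and 30.4 CPM in OCR, with all OCR libraries lower (-0.79 ± 0.16, adjusted p = 0.00130, edgeR; -0.49 without OAL replicate 1). Cish was at 125, 64.3, 48.5 and 57.2 CPM in OAL and 27.8, 39.3, 49.7 and 33.0 CPM in OCR (-0.97 ± 0.19, adjusted p = 0.00119, edgeR). Its groups overlap, and without OAL replicate 1 the log2 fold change was -0.58. Of the GTPases, Gbp4 was at 46.4, 55.0, 60.1 and 44.4 CPM in OAL and 25.5, 41.7, 39.9 and 38.3 CPM in OCR (-0.48 ± 0.12, adjusted p = 0.0136, edgeR), and Gbp6 at 11.9, 16.4, 16.5 and 12.7 CPM in OAL and 7.73, 11.4, 9.82 and 10.9 CPM in OCR (-0.51 ± 0.15, adjusted p = 0.0373, edgeR). Both were lower in every OCR library, and both calls were lost without OCR replicate 1, OAL replicate 2 or OAL replicate 3, that of Gbp6 also without OCR replicate 3. The other 4 that fell were Shisa5, Lgals3bp, Ly6e and Ly6a; Ly6a encodes Sca-1, on which the cells were sorted.

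In YCR, 3 of the 78 list genes tested fell and none rose, where 0.273% and 0.091% of all genes did. Cish was at 113, 160.0, 129 and 118 CPM in YAL and 67.8, 48.6, 55.6 and 60.1 CPM in YCR (-1.15 ± 0.14, adjusted p = 0.0101, edgeR). Irgm2, a GTPase of the same family as Igtp, was at 170.4, 166, 139 and 148 CPM in YAL and 106, 106, 87.6 and 109 CPM in YCR (-0.60 ± 0.11, adjusted p = 0.0474, edgeR), and Lgals3bp, a secreted glycoprotein, at 434, 458, 408 and 390.3 CPM in YAL and 298, 269, 277 and 319 CPM in YCR (-0.52 ± 0.0791, adjusted p = 0.0268, edgeR). All 3 were apart between the groups. The call of Irgm2 was lost whichever of the 8 libraries was left out, that of Lgals3bp for each library but YCR replicate 4 and that of Cish without YCR replicate 2. Cish and Lgals3bp were also among those that fell in OCR.

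Refeeding old mice was tested on 2 OCRRF libraries. Against OCR, 4 of the 44 genes rose and none fell, where 0.694% and 2.71% of the 32577 genes tested were called higher and lower. DESeq2 called 3 higher (Iigp1 was lost) and Ifit2 lower, with 0.654% and 6.4% of all genes called higher and lower, and 1 edgeR fit of all 22 diet libraries called none of the set and 64 of all genes. Values above 0 were found for 30 genes, with a median of 0.15 against 0.11 over all genes. Among the 12488 genes averaging 5 CPM or more the median was -0.14, with 26.1% above 0 against 68.2% of the set. In that group 163 were called higher and 865 lower. The median of the set was 0.03 with 24 genes above 0 without OCRRF replicate 1, 0.24 with 35 without OCRRF replicate 2 and 0.09 with 29 without OCR replicate 1. The libraries also differed in background, with receptor counts of 1213 and 1553 CPM in OCRRF, 587 to 1313 CPM in OCR and 553 to 788 CPM in OAL, and mitochondrial shares of 1.53% and 1.38% in OCRRF, above all OCR libraries. The part of these in the refeeding values was not tested. Ifitm1 was at 831 and 702 CPM in OCRRF, above all 4 OCR values and around the OAL values (0.51 ± 0.12 against OCR, adjusted p = 0.00648, edgeR). Ifi44 was at 105 and 98.0 CPM (0.48 ± 0.12, adjusted p = 0.0182, edgeR). Iigp1, an immunity-related GTPase, was at 126, 150.3, 111 and 117 CPM in OCR and 195 and 173 CPM in OCRRF (0.49 ± 0.13, adjusted p = 0.0191, edgeR).

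Oasl1, a relative of the 2-5A synthetases, was the fourth. It was at 4.71, 5.54, 4.72 and 5.02 CPM in OAL, 5.38, 3.88, 4.94 and 3.57 CPM in OCR and 8.28 and 8.00 CPM in OCRRF (0.82 ± 0.23 against OCR, adjusted p = 0.0344, edgeR). The OCRRF values exceeded those of both other groups, and Oasl1 was the only one of the 44 called against OAL (0.69 ± 0.18, adjusted p = 0.0400, edgeR), where 1.66% and 2.48% of all genes were called higher and lower. It was not called there without any 1 of the 6 libraries, while DESeq2 called 2, both higher (2.88% and 9.17% of all genes higher and lower), and TMM factors computed on genes averaging 5 CPM or more gave 6, all higher (calls over all genes 754 higher and 54 lower, against 528 and 788). Ifitm3 was at 782 and 754 CPM, Rtp4 at 98.2 and 116 CPM, Ifit3 at 6.80 and 5.36 CPM and Ifi27 at 65.6 and 44.4 CPM in OCRRF. Of these, all but Ifi27 were above every OCR value, as were 17.5% of all genes with only 2 OCRRF libraries. Of the 12488 genes averaging 5 CPM or more, 1150 were above every OCR value. Neither Ifitm3, Rtp4, Ifit3 nor Ifi27 passed. Comparisons with OCR and OAL share the OCRRF libraries. No gene of the set was called against OCR without OCRRF replicate 1, where Ifitm1 was at 0.34. The call of Oasl1 was also lost without OCRRF replicate 2, OCR replicate 2 or OCR replicate 4. TMM factors computed on genes averaging 5 CPM or more moved the median of all genes from 0.11 to 0.24 and that of the set from 0.15 to 0.28, with 40 genes above 0, and gave 9 members higher and none lower (calls over all genes 341 higher and 573 lower, against 226 and 884), while scaling by DESeq2's size factors left Oasl1 up and Ifit2 down (194 and 1075). In the same comparison 3 erythroid markers rose and 1 fell, 2 B cell markers rose (sums of 51.4 and 54.4 CPM in OCRRF, above all OCR and OAL libraries), and 3 megakaryocyte markers fell and 1 rose; their part was not tested.

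Refeeding young mice gave 41 of 44 genes above YCR, with a median of 0.33 against 0.02 over all genes, and none passed in edgeR, where 0.0102% of the 19535 genes did. At an unadjusted p below 0.05 were 13, all higher, against 7.27% of all genes in either direction, and DESeq2 called 4, all higher (0.763% and 0.609% of all genes higher and lower). Without YCRRF replicate 3, 41 genes were above 0 with a median of 0.32, and 14 had an unadjusted p below 0.05, against 9.87% of all genes. Ifitm1 was at 851, 909, 1648 and 888 CPM in YCRRF, so that every library was above every YCR library, as for 2.99% of all genes (1.17 ± 0.20, adjusted p = 0.131, edgeR). Without replicate 3, the 1648 CPM library, the value was 0.89 and Ifitm1 became the 1 call, while Iigp1 (0.68) and Igtp (0.57) were not called. Iigp1 was at 124, 132, 108 and 126 CPM in YCR and 168, 226, 205 and 201 CPM in YCRRF (0.69 ± 0.13, adjusted p = 0.179, edgeR). Igtp was at 128, 142, 165 and 138 CPM in YCRRF, again above all YCR libraries, replicate 3 being the highest (0.65 ± 0.15, adjusted p = 0.219, edgeR).

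The transducers and factors were read against YAL after refeeding. Irf7 was at 52.9, 47.6, 37.8 and 61.6 CPM in YCRRF, Irf9 at 170.3, 165, 138 and 197 CPM, Stat2 at 137, 113, 116 and 109 CPM and Irf1 at 228, 267, 166 and 264 CPM. Stat2 was above all YAL and YCR libraries. Against YAL, 25 genes were above and 19 below 0 with a median of 0.03 against 0.02 over all genes, and without YCRRF replicate 4 there were 20 above 0 with a median of -0.06. None of the set and none of the 19334 genes tested passed in edgeR (0%), and DESeq2 called none of the set and 0.0776% of all genes. At an unadjusted p below 0.05 there were 3, against 3.69% of all genes: Stat2 (0.31 ± 0.12), Oas1a (-0.38 ± 0.15) and Irgm1 (0.29 ± 0.13), each at an adjusted p of 0.995 (edgeR). The neutrophil marker sum was 267 to 1613 CPM in YCRRF against 3.07 to 360 CPM in YCR and 3.65 to 665 CPM in YAL, and its part in either comparison was not tested. The B cell sum, led by Cd79b, was 48.6 to 66.2 CPM in YCRRF, below all YAL libraries (66.2 to 120 CPM) by a narrow margin.

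Between the ad lib groups, OAL HSCs had lower levels of much of the set than YAL HSCs, though age and the library background described above cannot be told apart. Of the 44 genes, 11 were called lower and 1 higher, where 7.93% and 6.89% of the 23525 genes were, and 36 were below 0 with a median of -0.24 against 0.05 over all genes. Much of this was shared by expressed genes. Among the 12321 genes averaging 5 CPM or more, 32.8% were above 0 with a median of -0.13, against 18.2% of the set. In that group 1802 were called lower and 572 higher, against 11 and 1 of the 44. TMM factors from genes of at least 5 CPM gave 7 lower and 2 higher, a median of -0.13 and 1872 higher and 784 lower calls over all genes, against 1620 and 1866. DESeq2's size factors gave 7 lower and 1 higher, a median of -0.19 and 1687 and 1328 calls over all genes. Marker sums that did not overlap were those of B cells (42.0 to 48.4 CPM in OAL, 66.2 to 120 CPM in YAL), T and NK cells (59.8 to 70.8 against 25.2 to 41.7 CPM) and megakaryocytes (780 to 1023 against 527 to 663 CPM), and their part was not tested. All 4 transducers and factors were among those lower: Irf7 (-0.71 ± 0.17, adjusted p = 0.0173), Irf9 (-0.42 ± 0.0811, adjusted p = 0.00829), Irf1 (-0.37 ± 0.11, adjusted p = 0.0397) and Stat2 (-0.35 ± 0.10, adjusted p = 0.0382; all edgeR). Oasl1 was at 7.80, 12.7, 16.5 and 6.86 CPM in YAL against the lower OAL values given above. Oasl2 and Oas1a fell by 0.45 and 0.56 on the log2 scale, and Dhx58 fell by 0.62. Gbp7, Gbp3 and Ifi44 fell by 0.41, 0.36 and 0.42. Rtp4 was the 1 gene higher in OAL (0.52 ± 0.10, adjusted p = 0.00914, edgeR). The count moved between 5 and 17 with single libraries left out, 5 without OAL replicate 1, 7 without OAL replicate 3 or 4 and 17 without YAL replicate 4.

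The spread between libraries was summarised for each group. The median coefficient of variation of the 44 genes was 9.85% in OAL and 9.25% in OCR, and 14.8% in YAL, 15.1% in YCR and 20% in YCRRF. The most variable gene was Mx1 in YAL, YCR, YCRRF and OAL, at 57.6% in YAL and 25.1% in OAL. Ifitm1 was the least variable gene in OCR (5.14%) and Ifitm2 in OAL (3.98%) and YCR (2.35%).

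The knockdowns were read in transplanted cells, and the target was checked first. Kdr was at 6.04 and 6.07 CPM in the GFP scramble libraries and 1.93, 2.21, 3.28 and 2.03 CPM in the Kdr knockdown. In the double experiment it was at 3.97 and 4.62 CPM in the scramble, 1.24 and 0.555 CPM with Bmpr1a shRNA1 and 1.60 and 1.35 CPM with shRNA2. Every knockdown library was below its scramble libraries, although the gene did not pass the test over all genes (adjusted p = 0.247 and 0.272, edgeR). Bmpr1a was at 5.21 and 4.43 CPM in the double scramble, 4.44 and 0.656 CPM with shRNA1 and 2.22 and 0.595 CPM with shRNA2. Replicate 1 with shRNA1 lay within the scramble range, so it does not show a lower Bmpr1a RNA. In the GFP experiment, where it was not targeted, Bmpr1a was at 8.29 and 4.37 CPM in the scramble and 1.67, 3.73, 7.96 and 7.67 CPM in the knockdown.

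No gene of the set passed after Kdr knockdown, in edgeR or in DESeq2, where they called 0.0149% and 1.5% of all genes. Values were above 0 for 16 genes and below 0 for 28, with a median of -0.10 against 0.00 over all genes, and 8 had an unadjusted p below 0.05, against 8.9% of all genes. The median was -0.02 with 21 genes above 0 without Kdr knockdown replicate 2, -0.06 without replicate 1 and -0.05 without GFP scramble replicate 1. The smallest p was that of Irf1, at 211 and 207 CPM in the scramble and 178, 149, 182 and 171 CPM in the knockdown (-0.30 ± 0.0876, adjusted p = 0.389, edgeR). Mx1 followed, at 1.64 and 2.96 CPM in the scramble and 0.735, 0.529, 1.36 and 0.965 CPM in the knockdown, a low level (-1.35 ± 0.42, adjusted p = 0.402, edgeR; -0.87 without scramble replicate 2), then Iigp1, at 260.4 and 233 CPM in the scramble and 185, 123, 210.1 and 129 CPM in the knockdown (-0.61 ± 0.20, adjusted p = 0.432, edgeR). All 6 GTPases and all 3 of Parp9, Parp14 and Dtx3l had values below 0. Ifitm1, at 411 and 439 CPM and 290.5, 494, 346 and 398 CPM, overlapped (-0.15 ± 0.17), and Ifitm3, at 599.5 and 622 CPM and 519, 586, 559 and 534 CPM, did not (-0.15 ± 0.0676, adjusted p = 0.560, edgeR).

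The transducers and common effectors were also read in the Kdr knockdown. Irf7 was at 42.8 and 34.4 CPM in the GFP scramble and 29.1, 22.2, 46.7 and 41.2 CPM in the Kdr knockdown, Irf9 at 141 and 143 CPM and 129, 149, 154 and 135 CPM, and Stat2 at 88.8 and 67.1 CPM and 82.7, 106, 86.3 and 80.1 CPM. Ifit1, at 32.6 and 32.2 CPM in the scramble, was at 27.4, 30.5, 52.8 and 27.3 CPM in the knockdown, with replicate 3 highest. All of these groups overlap. Ifit3 was at 6.70 and 7.24 CPM and 6.49, 2.67, 8.92 and 3.33 CPM, and Isg15 at 11.7 and 10.0 CPM and 10.7, 11.9, 15.2 and 11.5 CPM, again with overlap. The neutrophil marker sum was 297 to 1955 CPM in the GFP scramble and 782 to 2892 CPM in the knockdown, which overlap. The stem cell sum was 4204 and 4445 CPM in the scramble and 3571 to 3986 CPM in the knockdown, the megakaryocyte sum 482 and 530 against 387 to 430 CPM, the B cell sum 33.3 and 39.9 against 41.1 to 66.0 CPM, and the plasmacytoid dendritic cell sum 173 and 155 against 145 to 154 CPM. The mitochondrial share was 0.778% and 0.774% against 0.440% to 0.721%. None of these overlaps, and their part was not tested.

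The double knockdown gave 26 genes above and 18 below 0, a median of 0.02 against 0.00 over all genes, and again no call in edgeR or DESeq2, where they called 0.00498% and 1.65% of all genes. With the shRNA1 libraries alone 16 genes were above 0 with a median of -0.08, and with the shRNA2 libraries alone 29 with a median of 0.08. The pooled median also lay below 0, at -0.03 and -0.01, without replicate 1 of shRNA2 or replicate 2 of the scramble. The difference between the shRNAs was not tested. At an unadjusted p below 0.05 were 3, against 9.85% of all genes: Oas1a (0.22 ± 0.0817), Oas2 (0.46 ± 0.18) and Ddx58, the RNA sensor RIG-I (0.19 ± 0.0821), at adjusted p of 0.455, 0.472 and 0.507 (edgeR). Ifitm1 was at 318 and 289 CPM in the scramble, 213 and 271 CPM with shRNA1 and 303 and 290.1 CPM with shRNA2. The shRNA1 libraries lay below the scramble pair and the shRNA2 libraries within it. Isg15 was at 11.8 and 11.5 CPM in the scramble, 10.2 and 7.67 CPM with shRNA1 and 13.5 and 15.6 CPM with shRNA2, on opposite sides of the scramble. Irf7 was at 35.7 and 34.6 CPM in the scramble, 30.5 and 30.9 CPM with shRNA1 and 40.0 and 37.7 CPM with shRNA2, with the same split. Stat2 was at 77.1 and 71.1 CPM in the scramble, 85.8 and 82.7 CPM with shRNA1 and 80.1 and 70.0 CPM with shRNA2. The test of the difference between the double and the Kdr knockdown called none of the set and none of all genes (0%) in edgeR, and none of the set and 0.0141% of all genes in DESeq2. Mx1 was the 1 gene with an unadjusted p below 0.05, against 3.58% of all genes (1.96 ± 0.89, adjusted p = 1.000, edgeR). With 1 library left out this value ran from 1.27, without replicate 2 of shRNA2, to 2.73, without replicate 1 of the double scramble. The monocyte and macrophage sum was 84.1 and 70.7 CPM in the double scramble and 25.3 to 45.7 CPM in the double knockdown, and the B cell sum 33.8 and 43.4 against 46.6 to 59.6 CPM. Neither overlaps, and their part was not tested.

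Chromatin was available for old diets. ATAC-seq, which counts transposase insertions in open DNA, covered 4 OCR and 2 OCRRF libraries of 15721335 to 19558148 counts in peaks; OAL was not analysed here. Of the 44 genes, 43 had a peak within 1 kb of a start site, all but Oasl1, in 51 peaks tested. None was called in edgeR or DESeq2, which called 0.221% and 0.157% of all 123372 peaks, and 5 had an unadjusted p below 0.05, against 11.7% of all peaks and 12.8% of the promoter peaks. The median log2 difference, OCR minus OCRRF, was -0.02 against 0.01 over all peaks and -0.02 over the 17681 promoter peaks. Its sign rested on single libraries, with 0.05 without OCRRF replicate 1 and -0.06 without OCRRF replicate 2. A difference in promoter accessibility between OCR and OCRRF was thus not detectable for the set with these libraries.

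The 2 OCR libraries for H3K4me3, the mark of active promoters, had a median signal within 1 kb of the start site of 22.9 over the 44 genes, against 10.5 over 25127 genes and 30.2 over the 11282 expressed genes. In all, 36 genes lay above the median of all genes and 13 above that of expressed genes. Parp9 was highest at 51.4, and its chromosomal neighbour Dtx3l had 47.4. Ifit3 was lowest, followed by Oas2 (1.76) and Mx1 (1.84), while Ifitm1, Ifitm2 and Ifitm3 had 30.6, 40.6 and 35.1. H3K27me3, the repressive mark, had a median of 0.182 against 0.322 over all genes and 0.177 over expressed genes, and 4 genes lay above the median of all genes (5 in the first library alone and 7 in the second). The median of the set was 0.160 against 0.173 over expressed genes in the first library and 0.194 against 0.184 in the second. The signal is in the deposited scale, and OAL and OCRRF histone marks were not analysed here.

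PU.1, a myeloid transcription factor known to pair with IRF proteins on EICE sites, was mapped in 2 libraries each of OAL, OCR and OCRRF. Peaks of both replicates lay within 1 kb of a start site for 1 of the 44 genes in OAL (2.27%, against 1.95% of 25127 genes), none in OCR (2.93% of genes) and none in OCRRF (1.44%). The one was Oasl1, with peaks on chr5:114921942-114922289 and chr5:114921884-114922259, with centres at -1125 and -1169 bases from the start site, at 11.4 and 9.13 times background. OCRRF replicate 2 also had a peak there (6.10 times), and OCR had none within 1 kb of the start site, while within 5 kb both OCR replicates had one. Rtp4 had a peak 30 bases past a start site in OCR replicate 2 alone (5.23 times background). Within 20 kb, 7 genes had peaks of both replicates in OAL, 11 in OCR and 7 in OCRRF (15.9%, 25% and 15.9%, against 7.15%, 10.7% and 5.82% of genes). Irf1, Oasl1, Ifi35, Gbp2, Irgm1, Ifitm2 and Ifitm3 had them under all 3 diets, and Stat2, Dhx58, Adar and Ifit3 met this rule in OCR and not in OAL or OCRRF. Of these 4, Stat2, Dhx58 and Adar had a peak in 1 OAL library, and Stat2 and Adar in 1 OCRRF library. With either replicate alone the counts were 11 and 9 in OAL, 14 and 13 in OCR and 10 and 9 in OCRRF. OCR also had the most peaks, 5464 and 3852 against 2900 and 3046 in OAL, and the difference between diets was not tested. The shares of genes given for PU.1 are over all 25127 genes, expressed or not. Shares over expressed genes alone were not taken, so an excess of the set over expressed genes cannot be read from them.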

How the data were processed

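RNA was made into libraries with SMART-Seq and Nextera XT and sequenced on different instruments for diet and transplanted cells, so the 2 experiments were not compared on level. The authors trimmed reads with cutadapt, aligned them to mm10 with STAR and deposited featureCounts counts per GENCODE gene, unnormalized; strand and multi-mapping settings are not given in the sources used here, so close relatives may share reads. For chromatin the authors aligned with BWA and removed duplicates. They deposited ATAC counts over consensus peaks, H3K4me3 signal within 1 kb of start sites, H3K27me3 signal over the 2 kb downstream, and MACS2 PU.1 peaks called per library with a score, a fold enrichment (ratio) and −log10 p and q. The PU.1 antibody of the second replicates is named only by their file names.

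Counts were tested in R 4.3.3 with edgeR 4.0.16 (filterByExpr, TMM, quasi-likelihood F test, Benjamini-Hochberg over all genes tested), each comparison on its own libraries, with both Bmpr1a shRNAs as 1 arm. Log2 CPM used a prior count of 2, and an ATAC peak was called past a fold of 1.5 where its mean log2 CPM exceeded 1.5. DESeq2 1.42.0, other filters and scalings, a replicate block, 1 fit of all groups and each library left out were alternatives; the fits were tested on simulated data. Total counts of 11102898 to 44780217 per library set the counting precision, and the spread between libraries sets the errors given. The members and lists were chosen with earlier results of these data known. Named were genes called in a restriction or knockdown comparison, the most abundant gene of each role, Irf7, Irf9, Stat2, Ifit1, Ifit3 and Isg15, called pathway genes (at most 5 a comparison), the 3 smallest p where none was called, and Kdr and Bmpr1a; other genes were named after their values were seen. Values of 2 genes of the marker and pathway lists are not reported here. Same-numbered libraries did not deviate together (correlations -0.17 to 0.19), so replicates were not treated as pairs.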

Additional observations from a re-analysis of the deposited data

Results flagged for a closer look

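In 5 groups 1 library lay far from the others by the ratio of its gap to the group's range, a rule that flags about 1 in 20 groups by chance; 132 groups were tested, so that 5 is no more than chance gives. Ifitm1 was at 1648 CPM in YCRRF replicate 3, where the other 3 libraries were at 851 to 909 CPM. In the same library Ifitm3 was at 1292 CPM, with the others at 726 to 784 CPM. That library also had 4.09% mitochondrial counts, the most of all diet libraries, and the part of this in the Ifitm values was not tested. Rtp4 was at 71.1 CPM in YAL replicate 2 against 78.8 to 79.2 CPM in the other 3, a gap that stands out because those 3 were so close. Usp18 was at 18.4 CPM in OAL replicate 1 against 26.0 to 27.2 CPM. Ifit1 was at 52.8 CPM in replicate 3 of the Kdr knockdown against 27.3 to 30.5 CPM.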

How the results depend on the processing

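For the genes named, 552 values under other settings and 425 with a library left out kept their direction and their side of the threshold. Under other settings 57 fell below the threshold and 13 passed it, and with a library left out 88 and 2 did. Direction changed for Irf7 in OCR versus OAL alone, to 0.0037 without OCR replicate 3, 0.057 without OAL replicate 2 and 0.0014 without OAL replicate 3; with 1 library left out it ran from -0.10 to 0.06. Ifitm1 was called in YCR versus YAL under all 18 alternatives, and in OCR versus OAL under 17, the exception being 1 fit of all groups. That fit called 0 genes of the set in OCR versus OAL, OCRRF versus OCR and OCRRF versus OAL and 7 in YCRRF versus YCR. DESeq2 called 12 in YCR versus YAL, 2 in OCRRF versus OAL, 4 in YCRRF versus YCR and 1 for the difference between old and young responses. Without a filter edgeR called 10 in YCR versus YAL, 6 in OCRRF versus OAL and 3 in YCRRF versus YCR. For OCRRF versus OCR a mean of at least 5 CPM gave 11, TMM factors from those genes 9 and DESeq2's size factors 2. For OCRRF versus OAL those TMM factors gave 6 and requiring 10 counts in each library 4. With a library left out, counts ran from 4 to 7 in OCR versus OAL, 1 to 2 in YCR versus YAL, 0 to 5 in OCRRF versus OCR, 0 to 1 in OCRRF versus OAL, 0 to 1 in YCRRF versus YCR and 5 to 17 in OAL versus YAL. The replicate block, for numbers that do not pair libraries, gave 6 in OCR versus OAL, 1 in YCR versus YAL, 3 in OCRRF versus OCR, 2 in OCRRF versus OAL and 7 in OAL versus YAL. Library sizes summed over the tested genes, an alternative chosen after seeing the data, gave 2 in YCR versus YAL, where the call of Igtp was lost, and changed no other count. Genes with a PU.1 peak were 2, 4 and 2 in OAL, OCR and OCRRF within 5 kb and 7, 11 and 7 within 20 kb, and within 1 kb with 1 replicate alone 0 to 1 in OCR and in OCRRF. The median H3K4me3 at the start site with the lowest signal was 21.1. TMM factors from genes of at least 5 CPM moved the median of all genes from 0.12 to 0.26 in OCRRF versus OAL and from 0.05 to 0.16 in OAL versus YAL. The cause of these changes was not tested. Low counts of Mx1, Ifit3 and Oas2 limit what can be called for them, and OCRRF and both scrambles had 2 libraries each.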
